A study of Homo sapiens with 18 samples.

Results

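The integrated stress response and the unfolded protein response were followed through 40 genes in human embryonic stem cells with and without the zinc finger transcription factor ZNF263. The genes were chosen by name as 2 groups, 26 ATF4 and amino acid genes (ATF4 to CTH in the order of the fold change plot) and 14 endoplasmic reticulum (ER) genes (HSPA5 to CALR). The choice was made with earlier results of these data known. Counts of members set beside all genes are therefore a description and not an independent test. All 40 were found by symbol among the 27130 gene rows of each count table, and all 40 passed the filter on low counts in every test. RNA was measured by polyA RNA sequencing in 18 libraries of 2 established lines, H1 (WA01) and H9 (WA09), and the study asked what ZNF263 does in pluripotency. In H1, 3 libraries were wild type and 3 came from clone 1-10, a homozygous ZNF263 knockout made with Cas9. In H9, 3 libraries were wild type, 3 came from homozygous knockout clone 9-1 and 3 from homozygous knockout clone 9-D. A further set of single H1 libraries held 1 wild type, 1 of clone 1-5, a heterozygous knockout, and 1 of clone 1-10. The homozygous knockout is thus known from 1 clone in H1 and 2 in H9. The labels do not say whether the libraries of a group came from separate cultures, so p-values measure the spread between these libraries, which may be technical.

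In the integrated stress response, kinases that sense missing amino acids, misfolded ER protein, heme shortage or viral RNA phosphorylate the initiation factor eIF2. General translation then falls while translation of ATF4 rises, and ATF4 with C/EBP partners switches on genes for amino acid synthesis, uptake and tRNA charging. The unfolded protein response adds the sensors IRE1 and ATF6, which act through spliced XBP1 and cleaved ATF6 to raise ER chaperones and protein disposal. Pluripotent stem cells divide fast and depend on amino acid supply and one-carbon metabolism. Counts per gene show neither ATF4 protein nor the splicing of XBP1, so what follows concerns mRNA levels only.

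Control sequences near the start sites are shown first, because the factors of the 2 pathways are known to act through them. Promoters covering 250 bases before to 50 bases after the start were taken from RefSeq (GRCh38.p14), where all 14 ER genes and 21 of the 26 ATF4 and amino acid genes were matched by symbol. The ER stress element, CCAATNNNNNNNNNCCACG, bound by ATF6 with the factor NF-Y, was present on either strand in 5 of the 14 ER promoters, in 0 of the 21 others and in 0.0769% of all 35116 promoters. Its second form, ATTGGNCCACG, was present in 3 further ER promoters, in 0 of the 21 and in 0.0541% of all promoters. The matches are given below with the fixed letters in capitals, read in the direction of the motif, which for CALR, CRELD2, HYOU1 and SDF2L1 is the strand opposite to the gene.
HSPA5: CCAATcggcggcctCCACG
XBP1: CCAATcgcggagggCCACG
CALR: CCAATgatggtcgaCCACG
CRELD2: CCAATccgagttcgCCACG
HSP90B1, upstream match: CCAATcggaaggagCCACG
HERPUD1: ATTGGgCCACG
HYOU1: ATTGGaCCACG
SDF2L1: ATTGGtCCACG

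HSP90B1 held a further match on the opposite strand, and HYOU1 held its second-form match at 2 places. The UPRE core TGACGTGG, a site for spliced XBP1, was found in HYOU1 alone among the members, where it overlapped a second-form match, and in 0.729% of all promoters. The core of the CARE, the composite C/EBP and ATF4 element, was searched as TGATGNAA and was found in 5 of the 21 matched ATF4 and amino acid promoters (ASNS, ATF3, CHAC1, SLC3A2 and SLC7A1), in HERPUD1 among the ER genes and in 3.62% of all promoters. The CRE TGACGTCA was in no member's window and in 1.85% of all promoters. A match is a string of letters, not a measured binding site, and CARE copies are known in introns and farther upstream, outside this window.

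The promoters of ASNS and CHAC1, both higher in all 3 replicated knockout clones, are printed 5′ to 3′ on the gene's strand with the CARE core in capitals. In CHAC1 the core reads on the opposite strand. ASNS encodes asparagine synthetase (chr7:97872359-97872658, minus strand) and CHAC1 a glutathione-degrading enzyme (chr15:40953221-40953520, plus strand).
ASNS: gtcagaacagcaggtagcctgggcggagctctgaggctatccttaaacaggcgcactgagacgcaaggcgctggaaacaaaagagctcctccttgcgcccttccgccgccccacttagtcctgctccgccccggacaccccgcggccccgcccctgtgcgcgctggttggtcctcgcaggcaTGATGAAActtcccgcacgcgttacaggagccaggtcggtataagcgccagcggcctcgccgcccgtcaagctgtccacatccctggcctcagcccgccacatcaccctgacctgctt
CHAC1: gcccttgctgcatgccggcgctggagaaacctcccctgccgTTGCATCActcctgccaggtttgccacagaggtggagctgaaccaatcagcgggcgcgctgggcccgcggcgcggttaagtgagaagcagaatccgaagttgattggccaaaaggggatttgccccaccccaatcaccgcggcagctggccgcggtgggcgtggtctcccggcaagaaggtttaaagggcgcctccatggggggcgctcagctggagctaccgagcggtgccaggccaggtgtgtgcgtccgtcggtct

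For the ER genes, the promoters of HSPA5, the luminal chaperone BiP (chr9:125241294-125241593, minus strand), and of CALR, the calcium-binding chaperone calreticulin (chr19:12938359-12938658, plus strand), are printed with the ER stress element in capitals. In CALR it reads on the opposite strand. These 4 are the motif-bearing ones of 7 promoters taken from the members called in most clones. The other 3, of STC2, MANF and DNAJC3, held none of the motifs searched in this window and are not printed.
HSPA5: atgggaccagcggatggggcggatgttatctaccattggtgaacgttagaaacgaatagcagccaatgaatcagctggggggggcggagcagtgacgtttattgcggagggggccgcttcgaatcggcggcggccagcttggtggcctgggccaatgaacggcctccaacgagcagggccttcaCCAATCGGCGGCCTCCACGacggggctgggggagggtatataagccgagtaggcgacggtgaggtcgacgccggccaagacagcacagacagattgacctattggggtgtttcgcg
CALR: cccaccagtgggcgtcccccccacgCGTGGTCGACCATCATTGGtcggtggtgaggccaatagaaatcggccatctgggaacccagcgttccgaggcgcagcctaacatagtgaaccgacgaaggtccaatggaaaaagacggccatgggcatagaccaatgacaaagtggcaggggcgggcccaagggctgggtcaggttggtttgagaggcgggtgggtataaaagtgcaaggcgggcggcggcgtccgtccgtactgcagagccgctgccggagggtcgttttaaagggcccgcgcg

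Levels are given as CPM, counts per 1 M counts of a library, after TMM scaling over the 15 replicated libraries, whose totals ranged from 9.66 to 21.0 M counts. They are used to compare libraries for 1 gene, not genes with each other. The knockout gene itself stood at 40.6, 42.3 and 39.8 CPM in H1 wild type and at 32.7, 33.6 and 36.3 CPM in clone 1-10. In H9 it stood at 39.6, 44.1 and 42.4 CPM in wild type, 37.1, 36.1 and 34.3 CPM in 9-1 and 35.3, 35.2 and 37.5 CPM in 9-D. Every knockout library was below every wild-type library of its line, yet the fall was small, with log2 fold changes of -0.27 ± 0.08 (SE) in H1 and -0.23 ± 0.06 in H9 (edgeR, adjusted p 0.016 and 0.0046). The labels do not give the edited bases, so a count over the whole gene checks the labels only in part. All 10 pluripotent cell markers were detected in every group, and their summed level moved with the knockout, from 8829 to 9236 CPM in H1 wild type to 9866 to 10162 CPM in 1-10, and from 7411 to 7633 CPM in H9 wild type to 8819 to 9129 CPM in the 2 clones. Of these markers, 4 of 10 were called higher in H1 and 9 of 10 in H9 (edgeR adjusted p under 0.05), where 5.01% and 14.4% of all genes tested were called higher and 7.25% and 15.3% lower. Summed neuroectoderm markers (12 genes) were 379 to 419 CPM in H1 wild type, 352 to 403 CPM in 1-10, 283 to 329 CPM in H9 wild type and 426 to 479 CPM in the H9 clones, most of it TUBB3. The other neuroectoderm markers did not follow that sum. In H1 6 of 10 tested were lower and 0 higher (median log2 -1.03), and in H9 1 of 4 tested was higher, TUBB3 itself, and 1 lower (median -0.42). Fibroblast and feeder markers (12 genes) summed to 601 to 951 CPM over all groups, most of it THY1, with DCN at 0 in H9 wild type and 9-D and LUM at 0 in 9-1, and of 9 tested 1 was higher and 4 lower in H1, and 3 higher and 4 lower in H9. Primitive streak and endoderm markers (11 of 12 genes found) summed to 32.4 to 38.0 CPM in H1 wild type, 14.9 to 26.8 CPM in 1-10, 12.9 to 19.8 CPM in H9 wild type, and 15.1 to 50.3 CPM in the H9 clones. Of 7 tested, 4 were lower and 0 higher in H1, and 3 higher and 0 lower in H9. Trophoblast and amnion markers (10 genes) summed to 20.3 to 29.9 CPM over all groups, with CGA, CGB5 or TFAP2B at 0 in every library of at least 1 group, and 1 of 3 tested was lower in H1, and 1 of 5 higher and 1 lower in H9. The part of these cell states in the results below was not tested, and in bulk RNA fewer cells of a type and less RNA per cell cannot be told apart.

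In H9, knockout of ZNF263 went with higher mRNA of most ATF4 and amino acid genes and of most ER genes. In H1 fewer members of both groups were called higher, from 3 knockout libraries against 6 in H9. With both H9 clones in 1 group, 21 of the 26 ATF4 and amino acid genes were higher and 0 lower, with a median log2 fold change of 0.32, and 9 of the 14 ER genes were higher and 0 lower, with a median of 0.18. Over all 15411 genes tested in that comparison 14.4% were called higher and 15.3% lower, with a median of -0.004. In H1, 3 of 26 ATF4 and amino acid genes were higher and 0 lower (median 0.07), and 6 of 14 ER genes were higher and 0 lower (median 0.15), where 5.01% of the 14897 genes tested were called higher, 7.25% lower, and the median was 0.003. With 3 knockout libraries each, H9 clone 9-1 alone had 5 of 14 ER genes higher, fewer than H1, and 9-D had 9. Of all genes 12.8% and 11.5% were higher there. In the test of the difference between lines, 0 of the 14 ER genes passed. Which group had the larger share called was not stable in either line. Without H1 wild-type replicate 3 the H1 counts were 2 of 26 and 1 of 14, and without H9 wild-type replicate 2 the H9 counts were 19 of 26 and 11 of 14, so that the order of the shares turned in both. A gene was called when its p from edgeR's quasi-likelihood F test, adjusted over all genes tested by the Benjamini-Hochberg method, was under 0.05. The largest change in these comparisons was 1.70-fold, for DDIT3 in H9.

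**Figure D1:**
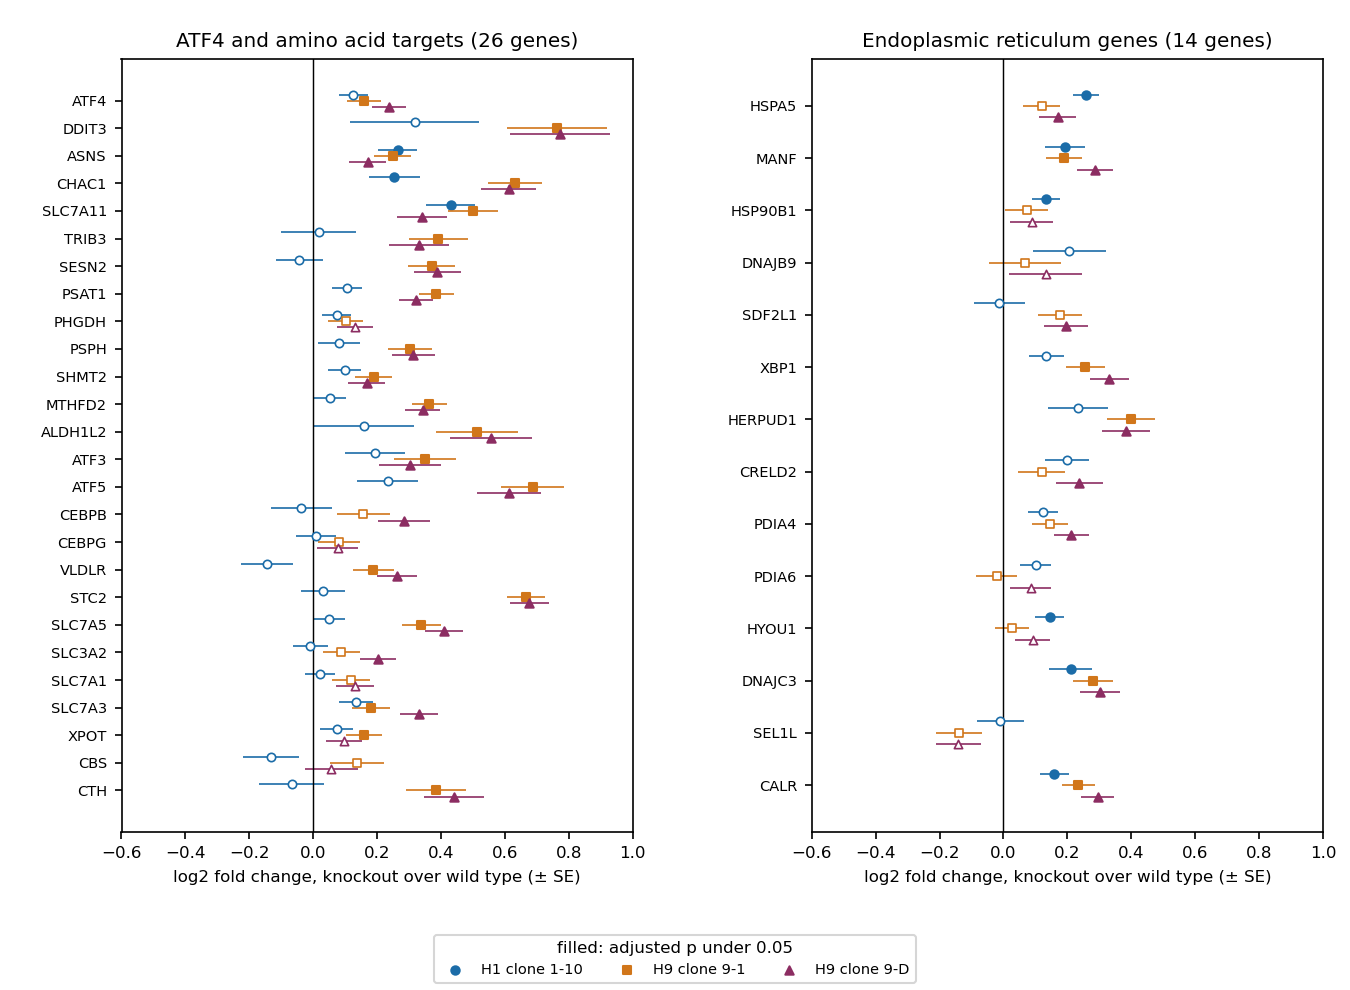
Knockout effect, as log2 of the ratio to wild type (x axis, ± SE), for each of the 26 ATF4 and amino acid genes (left) and the 14 ER genes (right), in H1 clone 1-10 (circles), H9 clone 9-1 (squares) and H9 clone 9-D (triangles). Filled symbols have an adjusted p under 0.05, which holds for 3, 20 and 21 genes on the left and for 6, 5 and 9 on the right.

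**Figure D2:**
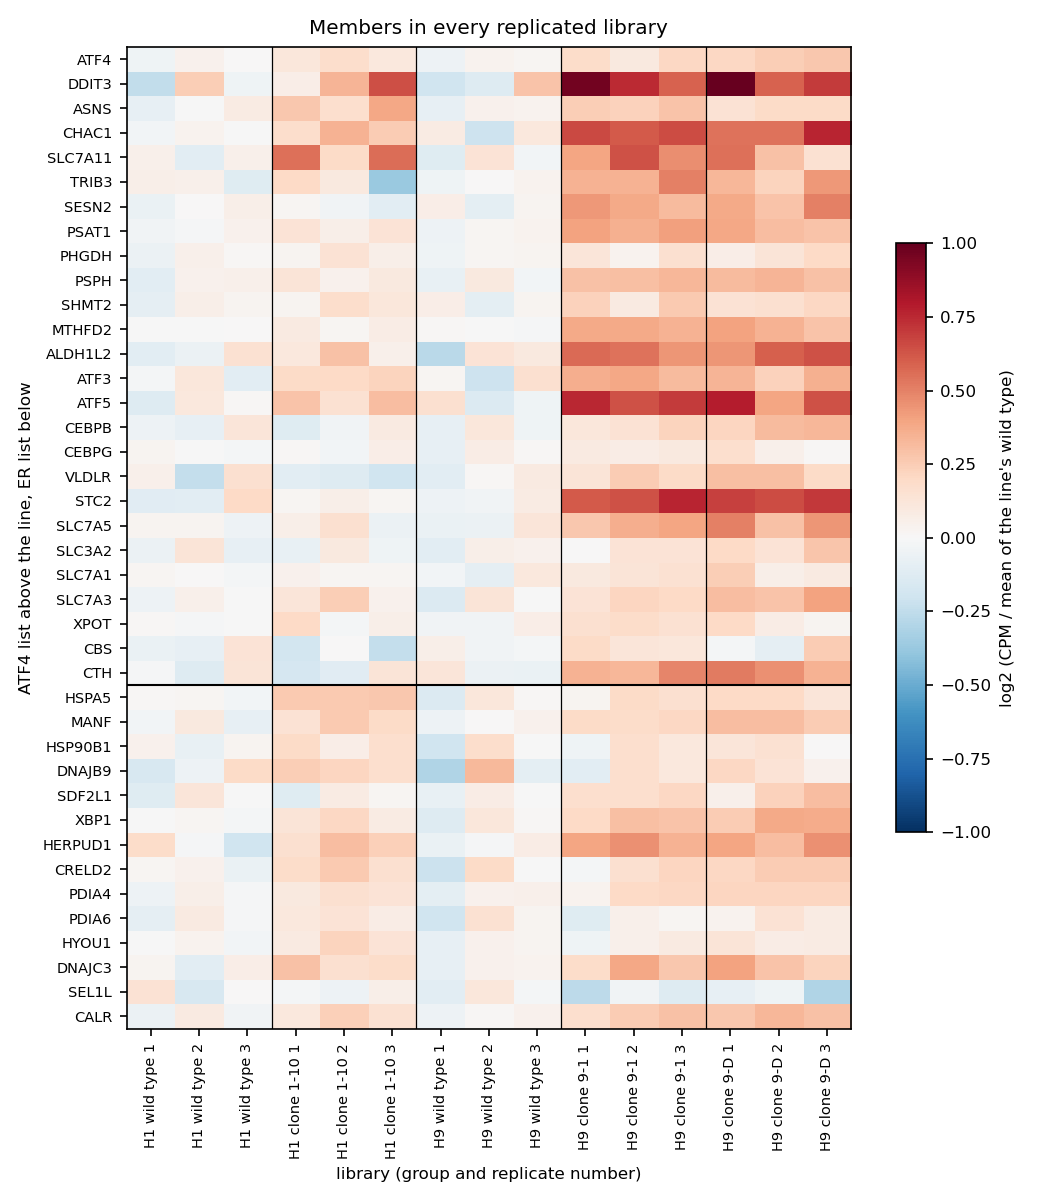
Log2 ratio of each library's CPM to the mean of its line's wild type, for the 40 genes (rows, ATF4 list above the line) in the 15 replicated libraries (columns). The 6 H9 knockout libraries are above the wild-type mean for most ATF4 and amino acid genes. In the first H9 wild-type library and the first 9-1 library, 0 of the 14 ER genes stood above the mean of their own group.

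Among the transcription factors of the pathway, ATF4 itself stood at 411, 435 and 430 CPM in H9 wild type, at 483, 456 and 491 CPM in 9-1 and at 492, 505 and 512 CPM in 9-D. All 6 H9 knockout libraries were above the wild-type range, and ATF4 was 1.15-fold higher (log2 0.20 ± 0.05, edgeR adjusted p 0.0018). In H1 its level was 440, 468 and 455 CPM in wild type and 492, 512 and 489 CPM in 1-10; the groups did not overlap, but the log2 fold change of 0.13 ± 0.05 had an adjusted p of 0.068. DDIT3, the pro-apoptotic factor CHOP that ATF4 induces, was low throughout, at 4.13, 4.33 and 5.76 CPM in H9 wild type, 9.24, 7.96 and 7.15 CPM in 9-1 and 9.49, 7.15 and 7.72 CPM in 9-D. Every H9 knockout library was above every wild-type library (log2 0.77 ± 0.14, adjusted p 6.9e-05). Its H1 libraries overlapped, with 2.97, 4.16 and 3.40 CPM in wild type against 3.67, 4.43 and 5.48 CPM in 1-10 (log2 0.32 ± 0.20, adjusted p 0.33). DDIT3 overlaps MARS on the opposite strand, a gene at a mean of 346 CPM over the 15 libraries, and whether the counting used strand is not stated, so reads of the overlap cannot be told apart.

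ATF5, a further bZIP factor whose translation responds to eIF2, stood at 17.7, 14.4 and 15.3 CPM in H9 wild type, 26.7, 24.5 and 25.7 CPM in 9-1 and 27.2, 20.8 and 24.6 CPM in 9-D. The H9 groups did not overlap and ATF5 was 1.57-fold higher (log2 0.65 ± 0.09, edgeR adjusted p 9.9e-07). H1 gave 17.7, 20.8 and 19.5 CPM in wild type and 23.5, 21.5 and 23.9 CPM in 1-10, again without overlap, at a log2 fold change of 0.23 ± 0.09 that did not pass (adjusted p 0.11). ATF5 shares its locus with NUP62 on the opposite strand, at a mean of 155 CPM over the 15 libraries, with the same limit as for DDIT3. ATF3, an early stress-induced repressor, was higher in H9 (log2 0.33, adjusted p 0.0034), as was CEBPB (0.22, adjusted p 0.021), a dimer partner of ATF4. CEBPG, the partner that forms the CARE-binding dimer with ATF4, had log2 fold changes of 0.01 in H1 and 0.08 in H9 and passed in neither line. Without H9 wild-type replicate 2 ATF3 had an adjusted p of 0.058, and without replicate 1 or replicate 3 CEBPB had 0.13 and 0.097.

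Of the stress effectors, STC2, a secreted glycoprotein, gave the smallest p of all members. In H9 it stood at 103, 104 and 113 CPM in wild type, 163, 166 and 181 CPM in 9-1 and 171, 167 and 175 CPM in 9-D, well apart from the controls (1.59-fold, log2 0.67 ± 0.05, edgeR adjusted p 1.1e-11). In H1 the libraries overlapped, with 90.3, 90.6 and 112 CPM in wild type and 99.3, 102 and 99.3 CPM in 1-10 (log2 0.03 ± 0.07, adjusted p 0.83). CHAC1, which breaks down glutathione, was 28.1, 29.2 and 28.4 CPM in H1 wild type and 32.3, 36.3 and 34.1 CPM in 1-10. In H9 it was 26, 21.4 and 26.4 CPM in wild type, 39.0, 37.6 and 38.7 CPM in 9-1 and 35.8, 35.8 and 41.7 CPM in 9-D. Knockout libraries were above all controls in both lines, by log2 0.25 ± 0.08 in H1 (adjusted p 0.033) and 0.62 ± 0.07 in H9 (adjusted p 1.0e-07). SESN2, a leucine sensor that restrains mTORC1, stood at 40.1, 35.7 and 39.1 CPM in H9 wild type, 51.7, 49.9 and 47.6 CPM in 9-1 and 49.8, 46.6 and 54.2 CPM in 9-D. It was higher in all 6 H9 knockout libraries (log2 0.38 ± 0.06, adjusted p 2.6e-05) and did not pass in H1, where wild type gave 38.8, 40.8 and 42.3 CPM and 1-10 gave 41.2, 39.6 and 37.9 CPM (log2 -0.04 ± 0.07, adjusted p 0.76). TRIB3, a pseudokinase that damps ATF4 activity, had log2 fold changes of 0.36 in H9 (adjusted p 0.00091) and 0.02 in H1 (adjusted p 0.95). VLDLR, a lipoprotein receptor, had 0.23 in H9 (adjusted p 0.0022) and -0.14 in H1 (adjusted p 0.27).

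Of the 6 serine and one-carbon enzymes, 5 passed the test in H9 and 0 in H1. All 26 ATF4 and amino acid genes gave 21 and 3, so these 6 are not set apart from their group. Of all genes tested 14.4% were called higher in H9 and 5.01% in H1. PSAT1, the serine pathway transaminase, was 304, 320 and 323 CPM in H9 wild type, 418, 405 and 419 CPM in 9-1 and 413, 391 and 384 CPM in 9-D (log2 0.35 ± 0.05, edgeR adjusted p 8.1e-07). H1 wild type already stood at 385, 390 and 406 CPM and 1-10 at 433, 411 and 434 CPM (log2 0.11 ± 0.05, adjusted p 0.14). The H9 knockout libraries overlapped the range of H1 wild type, although levels in the 2 lines come from separate tables. PSPH, which completes serine synthesis, was also higher in H9, with 41.9, 47.0 and 43.2 CPM in H9 wild type, 53.9, 54.2 and 55.3 CPM in 9-1 and 54.9, 55.8 and 53.9 CPM in 9-D (log2 0.31 ± 0.06, adjusted p 0.00011). In H1 it was 56.3, 62.4 and 62.7 CPM in wild type and 66.3, 62.3 and 64.5 CPM in 1-10 (log2 0.08 ± 0.07, adjusted p 0.46), and every H9 knockout library stayed below every H1 wild-type library. PHGDH, the enzyme that commits glycolytic carbon to serine, did not pass in either line (log2 0.07 in H1 and 0.12 in H9, adjusted p 0.32 and 0.064), although all 6 H9 knockout libraries were above the controls.

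MTHFD2, the mitochondrial folate dehydrogenase, stood at 167, 166 and 164 CPM in H9 wild type, 215, 215 and 211 CPM in 9-1 and 219, 211 and 201 CPM in 9-D (log2 0.35 ± 0.05, edgeR adjusted p 8.3e-07). H1 wild type was at 208, 207 and 209 CPM and 1-10 at 222, 210 and 219 CPM, which did not overlap but differed by only log2 0.05 ± 0.05 (adjusted p 0.54). ALDH1L2, which makes NADPH from mitochondrial formyl-folate, was low, at 5.93, 7.84 and 7.66 CPM in H9 wild type, 10.6, 10.4 and 9.70 CPM in 9-1 and 9.72, 10.8 and 11.1 CPM in 9-D. It was 1.45-fold higher in H9 (log2 0.53 ± 0.11, adjusted p 0.00042), with H1 at 5.21, 5.40 and 6.22 CPM in wild type and 6.05, 6.88 and 5.80 CPM in 1-10 (log2 0.16 ± 0.16, adjusted p 0.57). ALDH1L2 overlaps C12orf45 on the opposite strand, at a mean of 12.6 CPM. SHMT2, the mitochondrial serine hydroxymethyltransferase, was higher in H9 (log2 0.18, adjusted p 0.0076), a call lost without wild-type replicate 2 (adjusted p 0.081). ASNS was higher in both lines, by log2 0.26 ± 0.06 in H1 (adjusted p 0.0031) and 0.21 ± 0.05 in H9 (adjusted p 0.0018).

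In the transsulfuration route from methionine to cysteine, CTH, its last enzyme, was 17.5, 15.4 and 15.3 CPM in H9 wild type, 20.4, 20.2 and 22.6 CPM in 9-1 and 23.1, 22.1 and 20.4 CPM in 9-D. No knockout library of H9 fell into the wild-type range (log2 0.41 ± 0.08, edgeR adjusted p 0.00023). In H1 the groups overlapped fully, with 20.1, 18.6 and 22.1 CPM in wild type and 18, 18.8 and 22.1 CPM in 1-10 (log2 -0.07 ± 0.10, adjusted p 0.73). CBS, the enzyme before it, passed in neither line (log2 -0.13 in H1 and 0.10 in H9).

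Among the transporters, SLC7A11, the cystine importer, had the largest change in H1. It was 64.0, 57.3 and 64.1 CPM in H1 wild type and 90.5, 70.4 and 91.1 CPM in 1-10, all above the controls (1.35-fold, log2 0.43 ± 0.08, edgeR adjusted p 0.00021). In H9 it was 86.1, 103 and 91.8 CPM in wild type, 123, 146 and 129 CPM in 9-1 and 137, 115 and 104 CPM in 9-D (log2 0.42 ± 0.07, adjusted p 4.8e-05). SLC7A5, the large neutral amino acid exchanger LAT1, stood at 812, 818 and 926 CPM in H9 wild type, 1029, 1096 and 1118 CPM in 9-1 and 1206, 1041 and 1158 CPM in 9-D. It was higher in every H9 knockout library (log2 0.37 ± 0.05, adjusted p 2.1e-06), while H1 overlapped at 657, 658 and 623 CPM in wild type and 674, 721 and 619 CPM in 1-10 (log2 0.05 ± 0.05, adjusted p 0.55). A sequence related to SLC7A5, SLC7A5P2, has its own row, and how reads matching both were counted was not tested. The heavy chain SLC3A2, which pairs with both carriers, had log2 0.15 in H9 (adjusted p 0.037), lost without H9 wild-type replicate 1 (adjusted p 0.29), wild-type replicate 3, 9-1 replicate 3, 9-D replicate 1 or 9-D replicate 3 (0.057 to 0.064), and -0.01 in H1. Of the cationic amino acid transporters, SLC7A3 was higher in H9 (log2 0.26, adjusted p 0.00093), and SLC7A1 had 0.12 (adjusted p 0.067). XPOT, the tRNA exporter, had log2 0.13 in H9 at an adjusted p of 0.050, just outside the threshold.

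**Figure D3:**
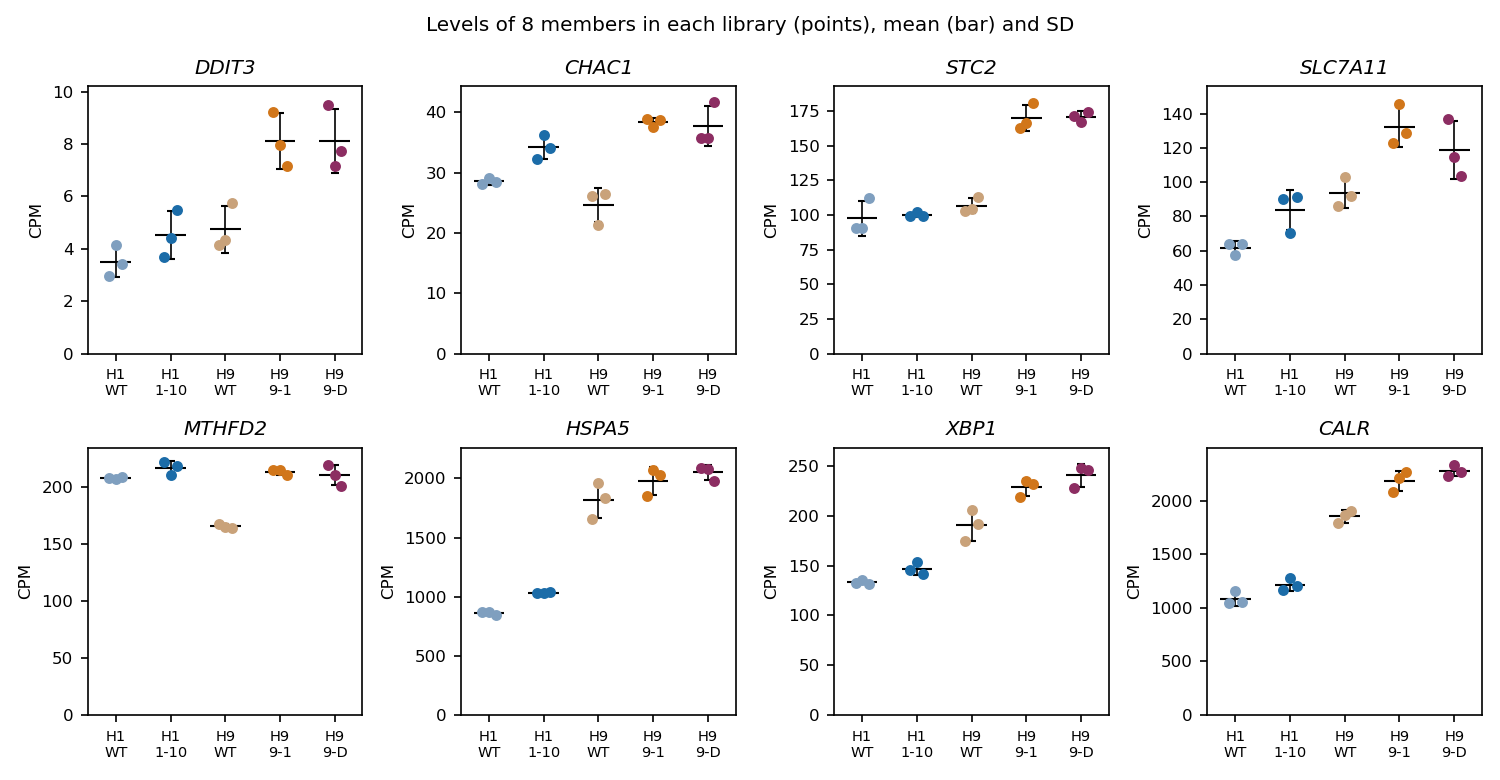
TMM-scaled CPM of 8 members (panels, each y axis from 0) in the 5 replicated groups (x axis), with a point for each of the 3 libraries, a bar at the mean and an error bar of 1 SD. CHAC1 and SLC7A11 were higher in the knockout libraries of both lines, DDIT3, STC2 and MTHFD2 separated in H9, and HSPA5, XBP1 and CALR stood higher in H9 wild type than in H1 wild type.

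The ER genes had median log2 fold changes of 0.15 in H1 and 0.18 in H9, and those called higher in both lines were HSPA5, MANF, DNAJC3 and CALR. HSPA5 was 867, 871 and 842 CPM in H1 wild type and 1029, 1031 and 1036 CPM in 1-10, a clear gap between narrow groups (log2 0.26 ± 0.04, edgeR adjusted p 4.0e-05). In H9 it was 1653, 1963 and 1832 CPM in wild type, 1847, 2071 and 2024 CPM in 9-1 and 2087, 2082 and 1980 CPM in 9-D. There 1 knockout library lay inside the wild-type range, and the log2 fold change of 0.15 ± 0.05 (adjusted p 0.028) was lost without wild-type replicate 1 or replicate 3 (adjusted p 0.31 and 0.075) and without 9-1 replicate 2, 9-1 replicate 3 or 9-D replicate 1 (0.055, 0.061 and 0.052). HSP90B1, the ER member of the HSP90 family, was 907, 839 and 901 CPM in H1 wild type and 1005, 922 and 989 CPM in 1-10 (log2 0.13 ± 0.04, adjusted p 0.047). Its H9 libraries overlapped, with 1636, 2130 and 1882 CPM in wild type, 1822, 2113 and 2023 CPM in 9-1 and 2046, 2090 and 1885 CPM in 9-D (log2 0.08 ± 0.06, adjusted p 0.32). A sequence related to HSP90B1, HSP90B2P, has its own row in the tables, with the same limit. CALR was 1042, 1157 and 1057 CPM in H1 wild type and 1166, 1280 and 1204 CPM in 1-10, and in H9 1791, 1868 and 1906 CPM in wild type, 2083, 2214 and 2268 CPM in 9-1 and 2236, 2337 and 2273 CPM in 9-D. It was higher in both lines, without overlap (log2 0.16 ± 0.05 and 0.26 ± 0.04, adjusted p 0.018 and 2.8e-05). HYOU1, a large HSP70-like chaperone, was 480, 495 and 473 CPM in H1 wild type and 513, 565 and 530 CPM in 1-10 (log2 0.14 ± 0.05, adjusted p 0.039). H9 gave 764, 833 and 825 CPM in wild type, 782, 835 and 858 CPM in 9-1 and 882, 852 and 855 CPM in 9-D, with overlap (log2 0.06 ± 0.05, adjusted p 0.37).

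Of the co-chaperones, DNAJC3, an inhibitor of eIF2 kinases and BiP partner, was 53.6, 48.8 and 55.2 CPM in H1 wild type and 64.3, 58.8 and 59.8 CPM in 1-10. H9 gave 98.1, 107 and 106 CPM in wild type, 118, 136 and 125 CPM in 9-1 and 137, 126 and 121 CPM in 9-D. It was higher in both lines without overlap (log2 0.21 ± 0.07 and 0.29 ± 0.06, edgeR adjusted p 0.040 and 0.00013). SDF2L1, part of an ER chaperone complex, was 57.2, 63.6 and 60.0 CPM in H9 wild type, 67.7, 67.8 and 69.4 CPM in 9-1 and 62.4, 70.6 and 74.7 CPM in 9-D (log2 0.19 ± 0.06, adjusted p 0.018). H1 libraries overlapped, with 35.9, 42.5 and 39.0 CPM in wild type and 36.0, 41.5 and 39.8 CPM in 1-10 (log2 -0.01 ± 0.08, adjusted p 0.94). DNAJB9, a BiP co-chaperone and XBP1 target, passed in neither line (log2 0.21 in H1 and 0.10 in H9, adjusted p 0.25 and 0.49), and its locus overlaps PNPLA8 and THAP5 on the opposite strand. Of the disulfide isomerases, PDIA4 was 766, 842 and 848 CPM in H9 wild type, 838, 942 and 946 CPM in 9-1 and 952, 951 and 952 CPM in 9-D (log2 0.18 ± 0.05, adjusted p 0.0059). In H1 it was 432, 466 and 445 CPM in wild type and 479, 499 and 492 CPM in 1-10, without overlap (log2 0.12 ± 0.05, adjusted p 0.074). PDIA6 passed in neither line. SDF2L1 and PDIA4 were not called in H9 without wild-type replicate 1 (adjusted p 0.13 and 0.088), nor SDF2L1 without replicate 3 (0.066).

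MANF, a secreted ER stress protein, was 76.3, 83.2 and 73.3 CPM in H1 wild type and 85.8, 93.2 and 88.5 CPM in 1-10. In H9 it was 121, 125 and 129 CPM in wild type, 142, 142 and 144 CPM in 9-1 and 154, 155 and 149 CPM in 9-D. It was higher in both lines without overlap (log2 0.19 ± 0.06 and 0.24 ± 0.05, edgeR adjusted p 0.038 and 0.00043). CRELD2, a further secreted ER stress protein, was 44.5, 45.1 and 41.9 CPM in H1 wild type and 49.7, 52.6 and 48.9 CPM in 1-10 (log2 0.20 ± 0.07, adjusted p 0.057). The H9 libraries gave 63.9, 84.7 and 73.9 CPM in wild type, 73.2, 82.9 and 86.0 CPM in 9-1 and 85.8, 88.5 and 88.5 CPM in 9-D. The H9 groups overlapped, and the call (log2 0.18 ± 0.07, adjusted p 0.046) was lost without wild-type replicate 1 or replicate 3 (adjusted p 0.47 and 0.12) and without any 1 knockout library but 9-1 replicate 1 (0.058 to 0.083), and with DESeq2 (0.066). CRELD2 overlaps ALG12 on the opposite strand.

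XBP1, whose spliced form drives ER expansion, was 174, 206 and 192 CPM in H9 wild type, 218, 235 and 232 CPM in 9-1 and 227, 248 and 246 CPM in 9-D. All H9 knockout libraries were above the controls (log2 0.29 ± 0.05, edgeR adjusted p 0.00010). H1 was also without overlap, at 133, 135 and 132 CPM in wild type and 146, 153 and 141 CPM in 1-10, but did not pass (log2 0.13 ± 0.05, adjusted p 0.11). HERPUD1, which serves ER-associated degradation, was 28.6, 29.8 and 31.6 CPM in H9 wild type, 39.5, 41.2 and 38.2 CPM in 9-1 and 39.4, 37.1 and 41.1 CPM in 9-D. It had the largest H9 change of the ER genes (1.31-fold, log2 0.39 ± 0.07, adjusted p 2.1e-05). In H1 it was 26.4, 23.1 and 20.3 CPM in wild type and 26, 28.9 and 27.4 CPM in 1-10, where 1 knockout library lay inside the wild-type range (log2 0.23 ± 0.09, adjusted p 0.10). SEL1L, the scaffold of the HRD1 degradation complex, was the 1 member below 0 in both H9 clones, at log2 -0.14 in H9 (adjusted p 0.089) and -0.01 in H1.

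Counted by overlap alone, all 3 knockout libraries of H1 were above all 3 controls in 9 of 26 ATF4 and amino acid genes and 9 of 14 ER genes, against 15.3% of all genes tested (14.5% for the opposite direction, which no member showed). In H9 all 6 were above the controls in 20 of 26 and 5 of 14, against 13.2% of all genes (13.4% for the opposite direction, which no member showed). The summed level of the ER genes was 4530 to 4676 CPM in H1 wild type and 5083 to 5215 CPM in 1-10, and that of the ATF4 and amino acid genes 4345 to 4515 CPM and 4633 to 4792 CPM. In H9 the ER sum was 7802 to 9069 CPM in wild type, 8702 to 9641 CPM in 9-1 and 9428 to 9845 CPM in 9-D, with overlap between wild type and 9-1. The ATF4 and amino acid sum there was 4472 to 4811 CPM in wild type, 5396 to 5622 CPM in 9-1 and 5436 to 5734 CPM in 9-D. The ER genes thus spread more between H9 wild-type libraries, in which 0 of 14 stood above the group mean in replicate 1. Replicate 1 of 9-1 also had 0 of 14 above its group mean.

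Single libraries bore on several of these counts. In H1 the count of ER genes called higher fell from 6 to 1 without wild-type replicate 3, to 3 without wild-type replicate 1 and to 2 without 1-10 replicate 3. ASNS, SLC7A11 and HSPA5 were called in H1 under every alternative tried, and the other 6 were not, with adjusted p up to 0.23 when 1 library was left out. CHAC1, MANF and HYOU1 were lost without wild-type replicate 1 or 3 or 1-10 replicate 2 or 3, DNAJC3 without any library but 1-10 replicate 2, HSP90B1 without wild-type replicate 2 or 3 or 1-10 replicate 1 or 3, and CALR without wild-type replicate 1 or 3. With DESeq2 the H1 calls of CHAC1, MANF and DNAJC3 were lost (adjusted p 0.079, 0.055 and 0.073) while ATF4 and PDIA4 were gained (0.034 and 0.042), and in the model of all 15 libraries HSP90B1 was lost (edgeR adjusted p 0.15). In H9 the ER count fell from 9 to 5 without wild-type replicate 1, where SEL1L was called lower, and the ATF4 and amino acid count was between 19 and 23 whichever single library was left out. Of the 30 members called in H9, 22 were called under every alternative. MANF, XBP1, HERPUD1, DNAJC3 and CALR were the ER genes among them.

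Each H9 clone was also compared with wild type on its own. In 9-1, 20 ATF4 and amino acid genes and 5 ER genes were higher and none lower (12.8% of all genes higher, 13.5% lower). In 9-D, 21 and 9 were higher and none lower (11.5% of all genes higher, 12% lower). Both comparisons use the same 3 wild-type libraries, so their calls are not independent. Of the ATF4 and amino acid genes 19 were called in both clones, 1 in 9-1 alone (XPOT) and 2 in 9-D alone (CEBPB and SLC3A2). Of the ER genes 5 were called in both and 4 in 9-D alone (HSPA5, SDF2L1, CRELD2 and PDIA4). Compared directly, 9-D and 9-1 differed in 0 of 40 members by edgeR, by DESeq2 and without any 1 library, where 0.305% of all genes were called. At an unadjusted p under 0.05 edgeR gave 2 ATF4 and amino acid genes and 0 ER genes. The ER count in 9-1 rose from 5 to 9 without H9 wild-type replicate 2, and in 9-D it fell from 9 to 5 without H9 wild-type replicate 1. Of the 25 members called in 9-1, 18 were called under every alternative, and of the 30 called in 9-D, 21 were. ASNS, CHAC1, SLC7A11, MANF, DNAJC3 and CALR were higher in all 3 clones. The shares of all genes called in both H9 clones, or in all 3 clones, were not computed. The counts called in both or in all 3 thus have no background beside them.

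Whether the effect itself differed between lines was tested in 1 model of all 15 libraries. For 9 ATF4 and amino acid genes the knockout effect was higher in H9 than in H1, and for 0 it was lower. None of the 14 ER genes passed in either direction by edgeR or DESeq2, and none had an unadjusted p under 0.05 in edgeR. Of all 15802 genes tested 4.96% had a higher effect in H9 and 3.77% a lower one. The differences of log2 fold changes were 0.64 ± 0.09 for STC2 (edgeR adjusted p 1.3e-06), 0.48 ± 0.13 for CTH (0.014), 0.42 ± 0.10 for SESN2 (0.0026), 0.42 ± 0.13 for ATF5 (0.041), 0.37 ± 0.10 for VLDLR (0.014), 0.37 ± 0.11 for CHAC1 (0.028), 0.32 ± 0.08 for SLC7A5 (0.0053), 0.30 ± 0.07 for MTHFD2 (0.0023) and 0.25 ± 0.07 for PSAT1 (0.013). STC2, SESN2, MTHFD2 and SLC7A5 passed under every alternative, while the count fell to 4 without H1 wild-type replicate 3. CTH was also lost without 1-10 replicate 1, VLDLR without H9 wild-type replicate 1, and CHAC1 and ATF5 without several single libraries (adjusted p up to 0.13), ATF5 also with DESeq2 (0.053). For SLC7A11 the difference was -0.01 (95% interval -0.25 to 0.23) and for ASNS -0.06 (-0.21 to 0.10). Across the 26 ATF4 and amino acid genes the effects in the 2 lines, which share no library, correlated at Pearson r = 0.48, and across the 14 ER genes at r = 0.55; genes are not independent replicates. The effect was above 0 in both lines for 20 of 26 and 12 of 14 genes. Of all genes tested 50.6% were above 0 in H1 and 49.3% in H9, and the share above 0 in both was not computed. Counts of each line come from a table of its own, and whether both tables were made together is not given, so line and batch cannot be told apart.

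**Figure D4:**
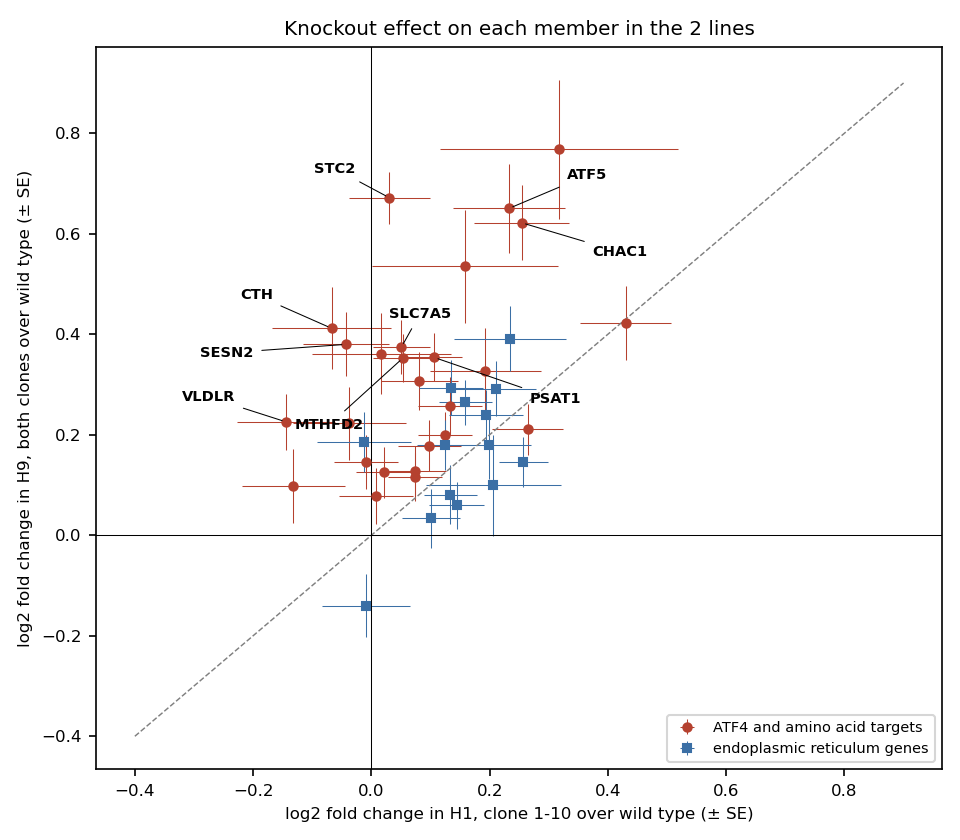
Log2 fold change of each member in H9 (both clones, y axis) against H1 (clone 1-10, x axis), with bars of 1 SE, for ATF4 and amino acid genes (circles) and ER genes (squares); the dashed line marks equal effects. The 9 named genes passed the test of the difference, all with the higher effect in H9, and 24 of 26 circles and 7 of 14 squares lie above the line. In the model of all 15 libraries 49.5% of all genes tested had a difference above 0.

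Levels of the 2 wild-type lines are set side by side as a description, with no test. For 13 of the 14 ER genes every H9 wild-type library was above every H1 wild-type library, against 30.0% of all genes, and for 0 it was below, against 28.3%. DNAJB9 was the exception. The median ratio of H9 to H1 wild type was 1.67 for the ER genes and 0.963 for the ATF4 and amino acid genes, of which 7 were above and 9 below in every library.

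The single H1 libraries have no replicates, so ratios to the single wild type are given with exact 95% intervals that cover counting error only. In clone 1-5, heterozygous for the knockout, 4 ATF4 and amino acid genes and 2 ER genes were at least 1.25-fold above wild type, against 7.01% of the 13903 genes, and 0 and 1 were at least 1.25-fold below, against 9.60%. Those above were CRELD2 (1.42-fold, interval 1.28 to 1.59), SDF2L1 (1.36, 1.2 to 1.55), SLC7A5 (1.34, 1.30 to 1.39), TRIB3 (1.30, 1.06 to 1.61), ATF5 (1.28, 1.08 to 1.51) and DDIT3 (1.54, 1.00 to 2.41). In total 13 of 14 ER genes were above wild type in 1-5, with a median log2 ratio of 0.14 against -0.005 over all genes, and HSPA5 was 1.16-fold above (1.13 to 1.19). The share of all genes above wild type in 1-5 was not computed, and the count rests on 1 pair of libraries. In the single library of clone 1-10, 0 members were 1.25-fold above wild type, against 5.44% of genes, and 1 gene of each list was at least 1.25-fold below, against 10.6%. These were ALDH1L2 (0.62-fold, 0.39 to 0.99) and DNAJB9 (0.77, 0.61 to 0.97). The median log2 ratios there were 0.00 for the ATF4 and amino acid genes, 0.04 for the ER genes and -0.003 for all genes. SLC7A11, higher in the 3 replicated libraries of the same clone, had a ratio of 1.00 (0.90 to 1.12), and HSPA5 had 1.03 (1.00 to 1.06). Rises of the size found in the replicated libraries of clone 1-10 were thus not seen for SLC7A11 or HSPA5 in this pair. Of the other members called in that clone, CHAC1, MANF, HSP90B1 and DNAJC3 were above the single wild type, with intervals that included 1. ASNS (0.95, 0.88 to 1.01), HYOU1 (0.96, 0.930 to 0.996) and CALR (0.96, 0.942 to 0.986) were below it.

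The wider pathway was read from 5 lists, to be set beside all genes tested, of which 5.01% were called higher and 7.25% lower in H1, and 14.4% and 15.3% in H9. These lists, too, were chosen with earlier results of these data known. Of 22 genes of the cytosolic aminoacyl-tRNA synthetases, which charge tRNA and are ATF4 targets in part, 4 were higher in H1 and 10 in H9, and 0 lower. AARS (log2 0.43), WARS (0.38) and GARS (0.35) led in H9, and HARS (0.22), WARS (0.19) and RARS (0.18) in H1. The effect on AARS and GARS was higher in H9 than in H1 (differences of 0.37 and 0.25, edgeR adjusted p 0.00026 and 0.010). Of 25 other ATF4 targets, 7 were higher and 4 lower in H9, and 0 higher and 3 lower in H1. The share of lower calls in H9 was close to that of all genes. In H9 GDF15, a stress-induced cytokine, had log2 0.89 (adjusted p 0.00026), VEGFA 0.45, and TXNIP, which limits glucose uptake, -0.88. GDF15 was low, at 2.06, 3.92 and 4.29 CPM in H9 wild type and 5.03 to 7.63 CPM in the clones. DDIT4, an mTORC1 inhibitor, fell by 1.54 on the log2 scale in H1 (adjusted p 2.2e-10) and had 0.12 in H9 (adjusted p 0.26), a difference of 1.66. Its H1 wild-type libraries were uneven, at 65.7, 63.5 and 114 CPM, against 27.1, 27.3 and 29.6 CPM in 1-10. SLC7A6 and the proline enzyme PYCR1 were lower in both lines.

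Upstream of ATF4, 20 genes for sensors and eIF2 control gave 1 higher in H1 and 1 lower in H9, no more than the share of all genes (5.01% higher in H1, 15.3% lower in H9). The higher one was EIF2AK3, the ER kinase PERK (log2 0.27, edgeR adjusted p 0.030), which had 0.12 in H9 (adjusted p 0.20). The lower one was ATF6 (log2 -0.26, adjusted p 0.0028), with -0.09 in H1. The amino acid sensor kinase EIF2AK4 had 0.00 and -0.01, EIF2AK1 0.00 and 0.11, and EIF2AK2 0.07 and 0.04 in H1 and H9, and ERN1 had 0.07 and -0.33, none of which passed. Of 38 other ER folding, degradation and translocation genes, 5 were higher and 3 lower in H1, and 7 higher and 1 lower in H9. The share of higher calls in H9, 18.4%, was near the 14.4% of all genes, and that of lower calls was below their 15.3%. DERL2 (log2 0.32) rose and DERL3 (-0.47) and EDEM1 (-0.29) fell in H1, all of them degradation factors. EDEM2 (0.33) and SEC61G (0.30) were among those higher in H9. ARMCX3, which the list also held although it encodes a mitochondrial outer membrane protein and no ER folding factor, is counted among the higher genes of both lines (0.28 in H1 and 0.35 in H9). Of 12 mitochondrial unfolded protein response genes, 1 was higher in H1 (HSPA9, log2 0.16) and 4 in H9, among them CLPX (0.20), HSPE1 (0.16) and HSPA9 (0.16), and 0 were lower.

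**Figure D5:**
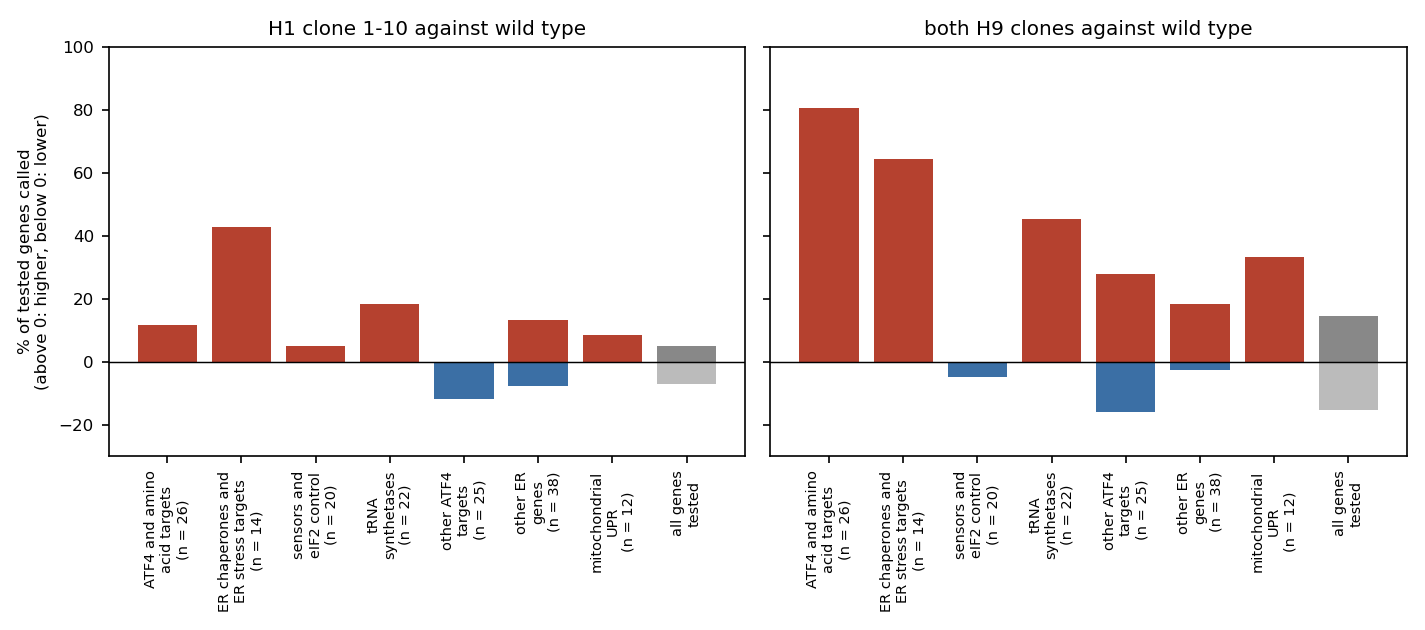
Share of tested genes called higher (above 0) or lower (below 0) at an adjusted p under 0.05, in % (y axis), for the 2 groups of members, 5 further pathway lists and all genes tested (grey), in H1 clone 1-10 (left) and both H9 clones (right). In H9, 21 of 26 ATF4 and amino acid genes and 10 of 22 synthetase genes were higher, against 14.4% of all genes.

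The authors' deposited tables, made with DESeq2, gave most of the same calls for the members. In the authors' deposited table for H1, 5 ATF4 and amino acid genes and 8 ER genes had an adjusted p under 0.05 with a positive fold change, the additions being ATF4, PSAT1, XBP1 and PDIA4. That table called CHAC1, MANF and DNAJC3 (DESeq2 adjusted p 0.049, 0.033 and 0.036). DESeq2 as run here did not (0.079, 0.055 and 0.073), nor did it call PSAT1 or XBP1. The H1 table was thus not reproduced for these genes, and the cause was not tested. In the authors' deposited table for H9 the counts were 23 and 8, with PHGDH and XPOT added and CRELD2 left out. The share of all genes called in the authors' deposited tables was not computed, so these counts are set only beside the calls given above.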

How the data were processed

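The authors deposited tables of whole-number counts per gene for 18 libraries. Per the submitters' processing notes, the authors used STAR, featureCounts, DESeq2 and build hg19, with no version given. The authors' own tables of comparisons give log2 fold changes and adjusted p-values, per the file headers. Library totals were 9.66 to 21.0 M counts for the replicated libraries and 11.1 to 13.4 M counts for the single ones. Over 15 pairs of replicates, chi-square per gene was 1.83 to 5.94, above counting error, so no library was counted as a repeat of another. Counts were tested with edgeR 4.0.16 (R 4.3.3, limma 3.58.1) by its quasi-likelihood F test, with TMM scaling, filterByExpr by group and Benjamini-Hochberg adjustment over all genes tested, at a threshold of 0.05. Each SE was derived from a gene's log2 fold change and its F value. Effects are knockout over wild type. The script was tested on simulated data. Alternatives were DESeq2 1.42.0, RLE scaling, no filter, the replicate number as a block, other groupings of the libraries in the model and each library left out. The 40 members and all lists were chosen with earlier results of these data known. Values in every library are given for members that passed in at least 1 of the H1, H9 and difference tests, up to 12 per list by smallest adjusted p, and for ATF4, DDIT3, XBP1 and HSPA5. Other pathway lists are shown by at most 3 passing genes with the largest change per line, besides the eIF2 kinases, ERN1, ATF6 and DDIT4. Of 7 promoters taken from members that passed in most clones, the 4 that held a motif were printed. Promoter coordinates are GRCh38.p14, not the counting build. Overlapping genes were found by name in a GENCODE annotation. For single libraries, ratios have exact 95% intervals covering counting error only. The authors' tables for the single libraries were not used.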

Additional observations from a re-analysis of the deposited data

Results flagged for a closer look

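For 9 ATF4 and amino acid genes the knockout effect differed between the 2 cell lines by the test of the difference itself (edgeR, adjusted p under 0.05). In log2 units, the effect in H9 exceeded that in H1 by 0.64 for STC2, 0.48 for CTH, 0.42 for SESN2, 0.42 for ATF5, 0.37 for VLDLR, 0.37 for CHAC1, 0.32 for SLC7A5, 0.30 for MTHFD2 and 0.25 for PSAT1. CHAC1 was called higher in both lines, while the other 8 were called in H9 and not in H1. H1 is known here from 1 clone, and line, clone and count table cannot be told apart. No test for a single outlying value was run, since each group held 3 libraries; the effect of leaving out each library is given with the results.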

How the results depend on the processing

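The direction of every count of members was kept under RLE scaling, DESeq2, no filter on low counts and other groupings of the libraries, with counts within 1.5 times those given, although calls of single genes were lost and gained within those counts. In H1 the number of all genes called went from 1827 to 1210 with DESeq2, to 2926 with the replicate number as a block and to 949 to 2100 with 1 library left out. The block also raised the H1 members called higher to 7 ATF4 and amino acid genes and 10 ER genes. Among them were ATF4, CRELD2 and PDIA4 (edgeR adjusted p 0.0048, 0.017 and 0.0053), which did not pass without it. In H9 it gave 1 ER gene called lower (SEL1L). Same-numbered libraries of 2 groups correlated at 0.042 to 0.14 in H1 and at -0.056 to 0.093 in H9 in their deviations from the group means. Each library of a pair of groups correlated best with its own number in 3 of 3 cases in H1 and 2 of 3 in each pair of H9 groups. The numbers may thus pair the libraries, although the correlations were low and the labels do not state a pairing. The main tests did not use the numbers.

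With 1 library left out, the ER genes called higher were 1 to 5 in H1, 5 to 11 in H9, 4 to 9 in 9-1 and 5 to 11 in 9-D. ATF4 and amino acid genes called lower in H1 were 0 to 1 (VLDLR without wild-type replicate 2), and ER genes called lower in H9 were 0 to 1. The genes with a higher effect in H9 than in H1 were 4 to 9. All genes called between 9-D and 9-1 went from 47 to 25 to 53. HSP90B1 had log2 fold changes of -0.015 to 0.18 in H9 and -0.0060 to 0.18 in 9-D, and DNAJB9 had -0.032 to 0.29 in H9, with the negative values without H9 wild-type replicate 1. The cause of these shifts was not tested.

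DDIT3 and ALDH1L2, and GDF15 and ERN1 outside the members, lie near 10 CPM or below, where counting error limits precision. TXNIP in H1 and in the H9 clones, and DERL3 in 1-10, are also near 10 CPM. The smallest SE of a member was 0.04 on the log2 scale (HSPA5 in H1), and log2 changes of 0.11 (PSAT1) and 0.13 (ATF4) did not pass in H1.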
